A study of Mus musculus with 42 samples.

Results

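The P2X family comprises the 7 ATP-gated channel subunits P2X1 to P2X7, encoded in the mouse by P2rx1 to P2rx7, and its mRNAs were followed here in nodose ganglion (NG) and dorsal root ganglion (DRG). Members were taken as every probe set annotated to exactly 1 of the 7 gene symbols. This gave 16 of the 45101 probe sets on Mouse430_2 arrays, covering 7 of 18194 genes, and 4 of the 12488 probe sets on MG-U74Av2 arrays, 1 each for P2rx1, P2rx4, P2rx6 and P2rx7 (4 of 8252 genes). P2rx2, P2rx3 and P2rx5 were therefore read on Mouse430_2 alone. A probe set is a group of short oligonucleotides designed against 1 transcript.

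P2X subunits assemble as trimers around a pore that lets sodium and calcium in when extracellular ATP binds, so ATP released by stretched, damaged or active tissue can excite a sensory ending. P2X3 is the subunit best known from small sensory neurons. It forms homomeric channels with brief, rapidly desensitising currents and, together with P2X2, heteromeric channels with sustained currents, and recordings in rodents associate the sustained type with nodose neurons in particular. P2X4 and P2X7 are best known from microglia, macrophages and other immune cells, P2X1 from smooth muscle and platelets, P2X5 from muscle and some large sensory neurons, and P2X6 as a subunit that in rat forms heteromers with P2X2 or P2X4 and functions poorly alone.

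The study compared NG, which holds the cell bodies of vagal visceral afferents, with DRG, which holds those of spinal afferents, in BALB/c mice kept under standard housing. No age, sex, genotype or treatment is given. Captured-neuron samples of about 150 neurons, cut from the tissue by laser microdissection and called visceral sensory neurons by the submitters, were hybridised to Mouse430_2 (11 NG and 9 DRG samples) and to MG-U74Av2 (5 NG and 5 DRG samples). Whole ganglia were hybridised to MG-U74Av2 (7 NG and 5 DRG samples). No source used here gives how visceral neurons were recognised. The labelling step took about 12 µg of RNA, named as amplified for the captured samples on MG-U74Av2 and as total elsewhere. The labels do not place the samples in separate animals, so the p-values measure a spread between samples that may be technical.

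Signals are in array units after every array of a type was scaled to the same trimmed mean, and precision is limited by how many arrays there are. Differences are NG minus DRG on the log2(signal + pseudocount) scale, which understates differences of dim probe sets, and every test is the two-sided limma test with Benjamini-Hochberg adjustment over all probe sets tested. Probe sets were tested when their signal exceeded the array's 40th percentile on as many arrays as the smaller group holds, or more. One is called dim in a group where it stayed at or under that percentile on each array. Marker levels followed the tissue labels: on Mouse430_2 the summed signal of 2 nodose markers ran from 929.8 to 1679 in NG samples and from 56.51 to 239.4 in DRG samples, and that of 4 DRG markers from 154.1 to 495.7 in NG samples and from 2439 to 3827 in DRG samples. None of 9 satellite glia and Schwann cell markers was dim in captured neurons of either ganglion on Mouse430_2.

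In captured neurons on Mouse430_2, P2rx2 and P2rx3 were higher in NG, by 7.52-fold and by 1.93- to 2.60-fold, while P2rx6 and P2rx5 were lower in NG, by 2.43-fold and 1.91-fold. Of the 10 member probe sets tested there, 3 were called higher in NG and 2 lower at an adjusted p under 0.05, and 5 were not called. Over all 28107 probe sets tested in that comparison, 22.2% were called. Each sample pools many cells, so fewer cells of a type and less RNA per cell cannot be told apart. The median log2 difference was -0.26 over the 10 members and -0.05 over all probe sets tested. On MG-U74Av2, which reads neither P2rx2, P2rx3 nor P2rx5, P2rx4 was 1.55-fold lower in captured NG neurons, and it was 2.46- to 3.10-fold higher in captured neurons than in whole ganglia.

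**Figure D1:**
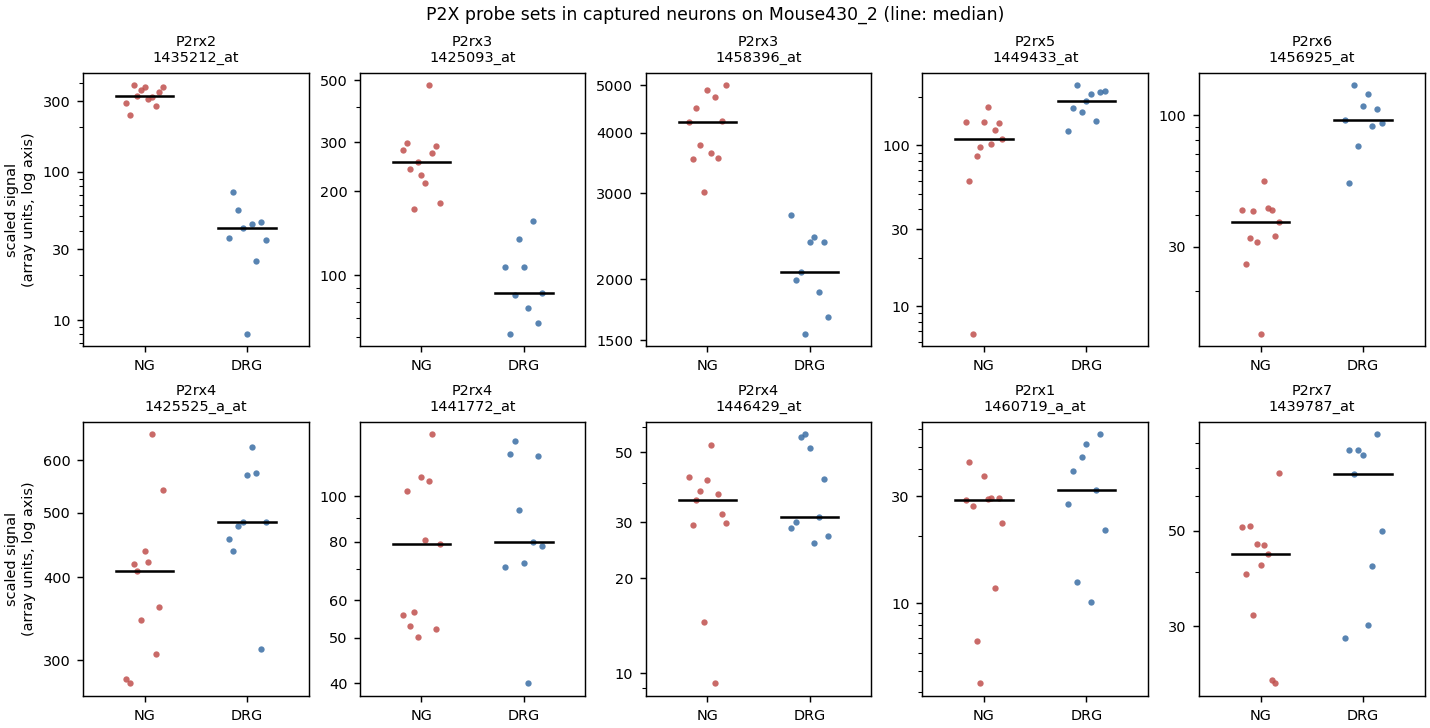
Scaled signal (array units, log axis) of the 10 tested P2X probe sets in captured neurons on Mouse430_2, each point 1 array (11 NG, 9 DRG) and each line the group's median. NG and DRG points of P2rx2 and of both P2rx3 probe sets do not overlap, and P2rx6 and P2rx5 sit lower in NG.

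P2rx2, the subunit that lends sustained kinetics to channels with P2X3, was read by 1435212_at. Its signal in the 11 NG samples was 240.7 at the lowest, 324.2 at the median and 385.6 at the highest, against 8.05, 41.8 and 72.9 in the 9 DRG samples. Every NG sample was thus above every DRG sample. The groups averaged 327.3 ± 45.4 in NG (SD, n = 11) and 40.5 ± 18.2 in DRG (SD, n = 9). The log2 difference was 2.91 (SE 0.206, 95% interval 2.49 to 3.33, limma adjusted p = 2.71e-11). Ordered by log2 difference, P2rx2 stood 65th of the 28107 probe sets tested. Within their own arrays the NG signals lay between the 83.6th and 88.4th percentile of all probe sets. The DRG signals lay between the 17.7th and 66.3rd percentile, with 8 of the 9 above the 40th, so P2rx2 was not dim in the DRG group. DRG replicate 005 was the lowest, and without it the difference was 2.72.

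P2rx3, the defining subunit of ATP-sensitive small sensory neurons, was read by 3 probe sets. The brightest, 1458396_at, had its lowest, median and highest signal at 3022, 4196 and 5006 in NG samples, against 1545, 2067 and 2715 in DRG samples. It lay above the 97th percentile of every array in both ganglia, and the groups did not overlap. The log2 difference was 0.95 (SE 0.109, 95% interval 0.73 to 1.18, limma adjusted p = 1.74e-07).

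The second P2rx3 probe set, 1425093_at, read 172.2, 253.4 and 480.5 at the lowest, median and highest NG sample, against 61.5, 86.1 and 155.8 for DRG samples. Here too every NG sample was above every DRG sample. The log2 difference was 1.38 (SE 0.181, limma adjusted p = 1.82e-06), a larger fold than that of 1458396_at, and the sizes of 1 gene's difference therefore varied with the probes. The third, 1431321_at, was above the 40th percentile on 8 NG arrays and on 0 DRG arrays, 1 array short of the filter, and was not tested. It averaged 29.2 ± 19.5 in NG (SD, n = 11) and 7.68 ± 2.0 in DRG (SD, n = 9), was dim in DRG, and had a log2 difference of 1.05 (limma adjusted p = 0.016) when no filter was applied. P2rx2 and the 2 tested P2rx3 probe sets were 3 of the 10 tested members whose groups did not overlap, and 3.84% of all probe sets tested had groups that did not overlap.

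Since P2rx2 differed by more than P2rx3, their ratio within each array was set out, as a description with no test. The size of the ratio has no meaning by itself, because the probe sets are not calibrated against each other. With 1458396_at as the P2rx3 reading, log2 P2rx2 minus P2rx3 was -3.61 ± 0.22 in NG samples (SD, n = 11) and -5.57 ± 0.77 in DRG samples (SD, n = 9), and ran from -3.85 to -3.06 in NG and from -7.27 to -4.64 in DRG. The ratio was higher on every NG array than on any DRG array. With 1425093_at it was 0.34 ± 0.50 in NG (SD, n = 11) and -1.20 ± 0.96 in DRG (SD, n = 9), and the ranges, -0.57 to 1.02 in NG and -2.88 to 0.22 in DRG, overlapped. After removal of the group means, r over the 20 arrays was -0.43 between P2rx2 and P2rx3 1425093_at, the lowest value among the member pairs, -0.00924 between P2rx2 and P2rx3 1458396_at, and -0.13 between the 2 P2rx3 probe sets; the arrays share their scaling, and no test was made.

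**Figure D2:**
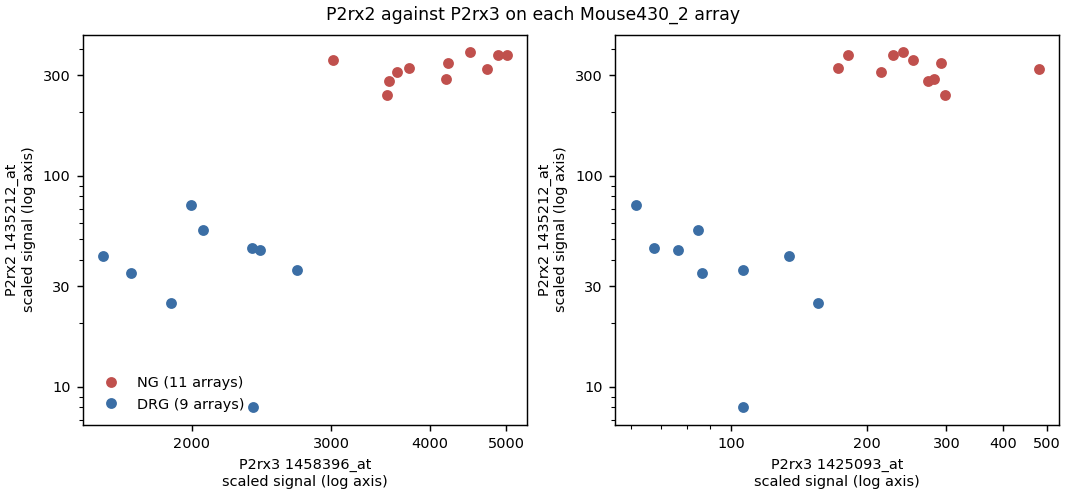
P2rx2 signal against P2rx3 signal on each Mouse430_2 array (array units, both axes log), with 1458396_at on the left and 1425093_at on the right. The NG arrays lie above the DRG arrays on the P2rx2 axis and to their right on both P2rx3 axes.

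P2rx6, read by 1456925_at, ran the other way. Its signal was 13.5, 37.7 and 54.7 at the lowest, median and highest NG sample, against 54.0, 95.5 and 132.0 for DRG samples. The highest NG sample, replicate 015, just exceeded the lowest DRG sample, replicate 008, and the groups were otherwise apart. The log2 difference was -1.28 (SE 0.188, 95% interval -1.67 to -0.89, limma adjusted p = 9.23e-06). The other Mouse430_2 probe set of P2rx6, 1450327_at, averaged 16.9 in NG and 20.2 in DRG, did not pass the filter, and had a log2 difference of -0.17 without it (limma adjusted p = 0.69). The P2rx6 probe set on MG-U74Av2, 94631_at, was not called either, at -0.18 with an interval of -1.09 to 0.73 (limma adjusted p = 0.799). The lower P2rx6 signal in NG thus rested on 1 of 3 probe sets.

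P2rx5, read by 1449433_at, had its lowest, median and highest signal at 6.69, 109.0 and 174.5 in NG samples, against 123.1, 190.2 and 237.6 in DRG samples. The groups overlapped, and NG replicate 003 lay far under the other 10 NG samples, of which the next lowest read 60.1. The log2 difference was -0.93 (SE 0.309, 95% interval -1.57 to -0.30, limma adjusted p = 0.0292). Without NG replicate 003 it was -0.65, with a lower adjusted p of 0.00717. The call was lost without DRG replicate 010, 014 or 006, with limma adjusted p of 0.0531, 0.0522 and 0.0503, and under 4 other settings. Beside the lower NG signals of P2rx6 and P2rx5, the summed signal of 9 satellite glia and Schwann cell markers was also lower in NG, at 10830 to 13500 in NG samples against 13660 to 16450 in DRG samples, with 0 of the 9 genes called higher and 4 called lower in NG. The summed signal of 5 skeletal muscle markers tended the other way, at 183.3 to 352.7 in NG samples and 82.92 to 226.4 in DRG samples, with overlap. Of 3 tested, 1, Myl1, was called higher in NG and 0 lower, beside 22.2% of all probe sets called. The part of glial or muscle RNA in the P2rx6 and P2rx5 differences was not tested.

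The remaining 5 tested probe sets on Mouse430_2, those of P2rx4, P2rx1 and P2rx7, all had lower means in NG and were not called. P2rx4 1425525_a_at averaged 404.9 ± 113.8 in NG (SD, n = 11) and 491.5 ± 92.4 in DRG (SD, n = 9), a log2 difference of -0.30 with an interval of -0.61 to 0.02 (limma adjusted p = 0.185). Its other 2 tested probe sets, 1441772_at and 1446429_at, gave -0.16 and -0.23 (limma adjusted p = 0.668 and 0.517). P2rx7 1439787_at averaged 42.3 ± 13.3 in NG (SD, n = 11) and 58.8 ± 21.6 in DRG (SD, n = 9), with an interval of -0.82 to 0.05. P2rx1 1460719_a_at averaged 24.5 ± 12.2 in NG (SD, n = 11) and 32.9 ± 16.6 in DRG (SD, n = 9), with an interval of -0.92 to 0.25. These intervals do not show that the 3 genes were equal in the ganglia. Counting the third P2rx3 probe set, 6 member probe sets did not pass the filter, at least 1 each for P2rx1, P2rx3, P2rx4, P2rx6 and P2rx7; of these, P2rx1 1429794_a_at was dim in both ganglia.

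**Figure D3:**
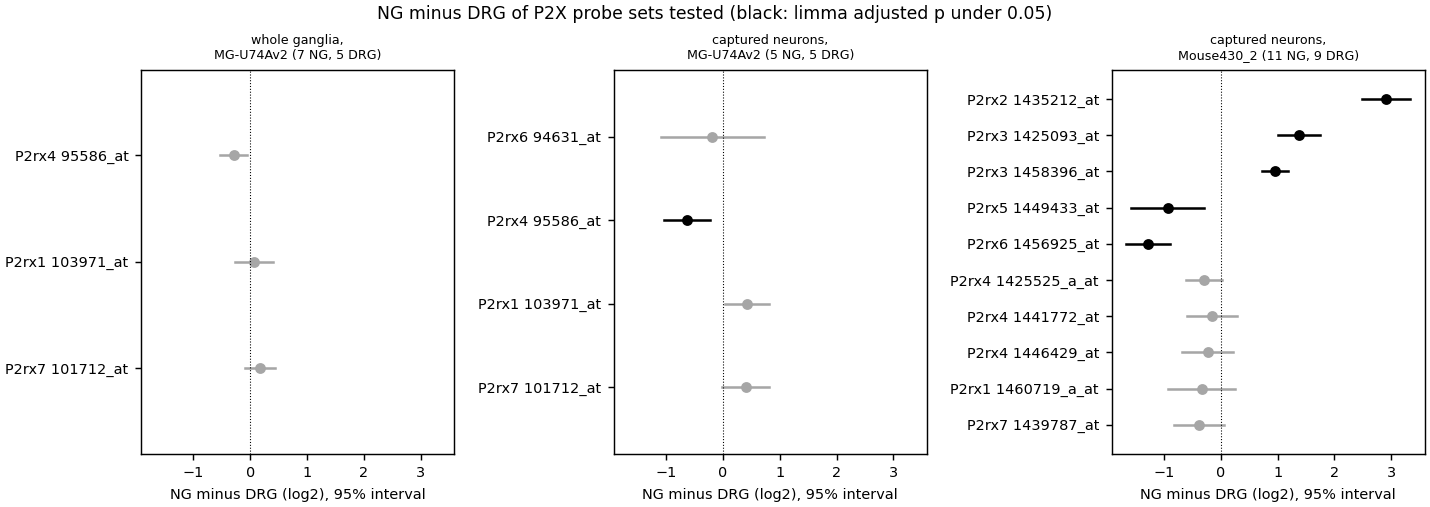
NG minus DRG (log2, points) with the 95% interval (lines) of the P2X probe sets tested in whole ganglia and in captured neurons on each array type; black marks a limma adjusted p under 0.05, grey the rest. P2rx2 and P2rx3 lie right of 0, P2rx5 and P2rx6 1456925_at left of it, and P2rx4 lies left of 0 in all 3 panels but is black in 1.

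On MG-U74Av2, P2rx4 was the member called between captured NG and DRG neurons. The probe set 95586_at read 781, 788, 1127, 1355 and 1367 in the 5 NG samples, against 1377, 1425, 1512, 1755 and 2227 in the 5 DRG samples. Every NG sample was below every DRG sample, by a narrow gap between the highest NG and the lowest DRG value. The log2 difference was -0.63 (SE 0.188, 95% interval -1.03 to -0.23, limma adjusted p = 0.0272). It was 1 of 4 members called, against 21.8% of all probe sets tested, and 1 of 4 whose groups did not overlap, against 16.3%, so neither count stands out from the background. The call was lost without DRG replicate 003 or 008 or NG replicate 010 or 014, with adjusted p of 0.0721, 0.0591, 0.0605 and 0.0618. P2rx4 is known from macrophages and microglia: the summed signal of 10 macrophage markers was 489.8 to 759.7 in captured NG samples and 481.2 to 605.3 in captured DRG samples, overlapping, and Aif1, Itgam and Ptprc were dim in both. Of these markers 5 were tested, and 1, C1qc, was called higher in NG (log2 1.34, limma adjusted p = 0.0127) and 0 lower. The part of macrophage RNA in the P2rx4 difference was not tested. The glial marker sum was lower in NG, at 12330 to 13510 against 14470 to 16890 in DRG, and its part in the P2rx4 difference was not tested.

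P2rx1 and P2rx7 had higher means in captured NG neurons on MG-U74Av2, the reverse of their order on Mouse430_2, and were called on neither array. P2rx1 103971_at read 161.2, 166.4, 178.8, 201.2 and 238.1 in NG samples, against 92.0, 134.9, 144.2, 147.8 and 177.9 in DRG samples, at 0.43 (limma adjusted p = 0.107). P2rx7 101712_at read 104.2, 129.3, 131.9, 142.4 and 150.3 in NG samples, against 66.2, 74.2, 107.2, 121.0 and 127.0 in DRG samples, at 0.40 (limma adjusted p = 0.159). Both genes' groups overlapped. The summed signal of 4 platelet and erythroid markers was higher in NG, at 416.7 to 675.0 against 265.1 to 410.6 in DRG. Of them 1, Gp1bb, was called higher (mean 301.5 in NG, 152.3 in DRG). Hba-a1 was not called (164.9 and 130.1), and Pf4 (15.7 and 15.2) and Alas2 (49.5 and 34.0) did not pass the filter. The part of such RNA in the P2rx1 signal was not tested. On Mouse430_2, where the P2rx1 mean was lower in NG, the sum of 5 such markers was 452.5 to 1093 in NG and 263.2 to 611.6 in DRG, with overlap. Gp1bb (mean 519.4 in NG, 215.6 in DRG) and Itga2b (147.4 and 101.1) were called higher in NG. Pf4 had a lower mean in NG (32.8 and 46.1) and was not called, nor was Hba-a1 (23.5 and 19.9). Alas2 (14.81 and 16.05) did not pass the filter. P2rx6 94631_at ranged from 25.4 to 125.7 in NG samples and from 19.9 to 137.4 in DRG samples, wider within each ganglion than between them.

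In whole ganglia none of the 3 tested members was called by limma, 1 had an unadjusted p under 0.05, and 35.4% of all probe sets tested were called. That 1 was P2rx4, which read 371.3, 387.7 and 525.8 at the lowest, median and highest of 7 NG samples, against 426.0, 477.8, 536.5, 561.0 and 611.9 in the 5 DRG samples. The groups overlapped, and the log2 difference was -0.29 (SE 0.116, limma adjusted p = 0.0585), which passed the threshold under 6 of 22 other settings and was -0.66 without scaling. P2rx7 averaged 128.4 ± 14.6 in NG (SD, n = 7) and 113.9 ± 20.3 in DRG (SD, n = 5), at 0.17 (limma adjusted p = 0.331). P2rx1 averaged 127.5 ± 26.4 in NG (SD, n = 7) and 121.0 ± 25.8 in DRG (SD, n = 5), at 0.07 (limma adjusted p = 0.78), and its sign turned under each of 3 other scalings; that of P2rx7 turned without scaling. P2rx6 averaged 30.4 in NG and 26.6 in DRG and did not pass the filter. The P2rx4 difference was thus negative in all 3 experiments, at -0.29, -0.63 and -0.30, and called in 1; MG-U74Av2 95586_at and Mouse430_2 1425525_a_at were designed from the same transcript record. The captured experiments are not known to be independent, since the numbers of 5 NG and 5 DRG samples on Mouse430_2 are also found on MG-U74Av2.

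**Figure D4:**
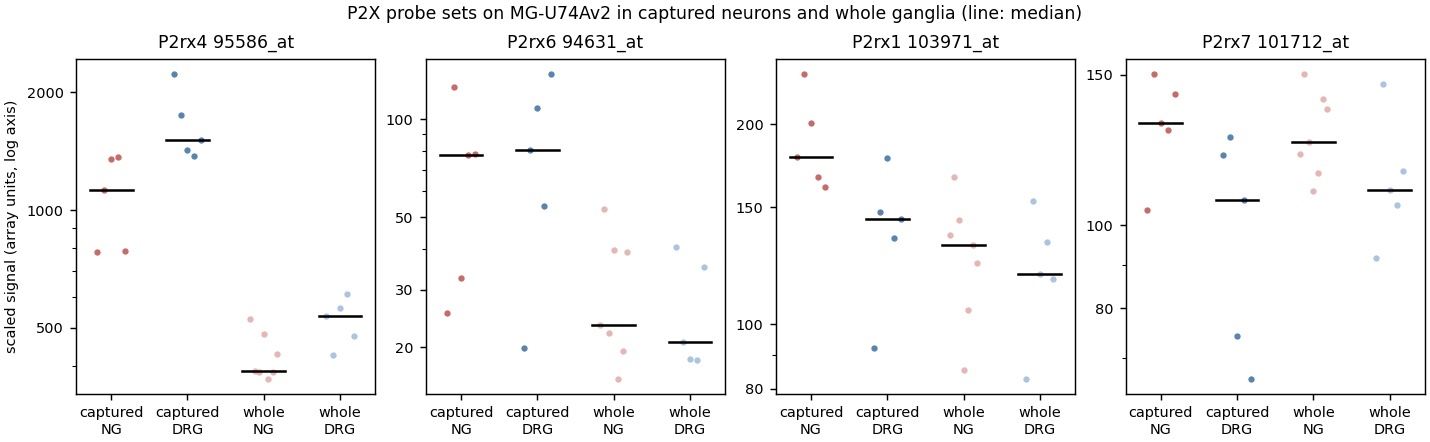
Scaled signal (array units, log axis) of the 4 P2X probe sets on MG-U74Av2 in captured NG (5), captured DRG (5), whole NG (7) and whole DRG (5) samples; points are arrays and lines medians. P2rx4 lies higher in every captured sample than in any whole ganglion, and P2rx7 overlaps between all 4 groups.

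Captured neurons were then set against whole ganglia within each ganglion, in 1 fit of the 4 groups on MG-U74Av2. P2rx4 was 3.10-fold higher in captured DRG neurons (log2 1.63, SE 0.163, limma adjusted p = 9.65e-09) and 2.46-fold higher in captured NG neurons (log2 1.30, SE 0.151, limma adjusted p = 6.32e-08). By log2 difference it stood 37th of 8309 probe sets tested in DRG and 113th in NG. The captured samples did not overlap the whole ganglia in either: they ran from 1377 to 2227 against 426.0 to 611.9 in DRG, and from 781 to 1367 against 371.3 to 525.8 in NG. P2rx4 was thus highest in captured DRG, then captured NG, whole DRG and whole NG, and the neighbours whole DRG and whole NG were not called different. The macrophage marker sum was 489.8 to 759.7 in captured NG against 718.2 to 1007 in whole NG. It was 481.2 to 605.3 in captured DRG against 491.3 to 768.6 in whole DRG. Of 6 sensory neuron markers, 3 were called higher and 2 lower in captured DRG, against 47.2% of all probe sets called. In captured NG 3 were called higher and 3 lower, against 55.3%. The part of either cell type in the P2rx4 difference was not tested.

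P2rx6 was also higher in captured neurons, with a log2 difference of 1.12 in DRG (SE 0.364, limma adjusted p = 0.0128) and 0.82 in NG (SE 0.337, limma adjusted p = 0.0401), although captured and whole samples overlapped in both ganglia. The NG call was lost under 9 of 30 other settings, among them no filter (limma adjusted p = 0.0543). The probe set, 94631_at, was above the 40th percentile on 4 captured DRG and 3 captured NG arrays. In whole ganglia it was above it on 1 DRG and 2 NG arrays, so it passed the filter largely through the captured groups. P2rx1 was 1.45-fold higher in captured NG neurons (limma adjusted p = 0.00754) and at 0.18 in DRG (limma adjusted p = 0.42). P2rx7, best known from glial and immune cells, was not called, at -0.20 in DRG (limma adjusted p = 0.317) and 0.03 in NG (limma adjusted p = 0.877).

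In all, 2 of 4 members were called in DRG, against 47.2% of probe sets tested, and 3 of 4 in NG, against 55.3%; 1 of 4 had groups that did not overlap in each, against 37.3% in DRG and 28.1% in NG. Counts of this size are near the background, and capture, RNA amplification and cell content cannot be told apart here. The median log2 difference of the members was 0.65 in DRG and 0.68 in NG, beside 0.03 and 0.02 over all probe sets tested. Both medians rest in part on P2rx6 94631_at, which passed the filter largely through the captured groups. They therefore do not show a shift of the family. Whether the NG minus DRG difference itself changed with capture was tested as an interaction. By limma 0 of the 4 members were called and 0 had an unadjusted p under 0.05, against 18.2% called over all probe sets, with intervals of -0.79 to 0.12 for P2rx4, -1.32 to 0.72 for P2rx6, -0.15 to 0.86 for P2rx1 and -0.22 to 0.69 for P2rx7.

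P2rx4 and P2rx6 shared 2 features on these arrays: each was called lower in NG in 1 captured experiment, and each was called higher in captured neurons than in whole ganglia. For P2rx6 no single probe set had both: the first was that of 1456925_at and the second that of 94631_at. Both features have limits. The P2rx4 call lower in NG was lost under 4 of 21 other settings. The P2rx6 call in captured NG was lost under 9 of 30, and 94631_at passed the filter largely through the captured groups. The promoters of P2rx4 and P2rx6 are shown for these features. They come from RefSeq on build GRCm38.p6, as the 250 bases before the start that its promoter table uses, on the plus strand. That start lies inside the gene record of the same build: the last 26 bases of the P2rx4 window and the last 18 of the P2rx6 window belong to the record. Promoter entries matched 4 of the 7 genes, namely P2rx1, P2rx4, P2rx6 and P2rx7, and P2rx2, P2rx3 and P2rx5 matched none. The windows are chr5:122707294-122707543 for P2rx4 and chr16:17561635-17561884 for P2rx6. Capitals mark letters that match 1 of 5 motifs on either strand: the GC box with the letters GGGCGG, the CCAAT box as its name spells it, the TATA box with the letters TATAAA, the E-box with the letters CANNTG, and the homeodomain core with the letters TAATTA.
P2rx4: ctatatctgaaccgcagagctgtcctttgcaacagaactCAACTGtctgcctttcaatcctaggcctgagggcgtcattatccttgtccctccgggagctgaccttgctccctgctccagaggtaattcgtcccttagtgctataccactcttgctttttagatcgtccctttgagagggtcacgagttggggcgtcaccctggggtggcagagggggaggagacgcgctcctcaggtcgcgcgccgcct
P2rx6: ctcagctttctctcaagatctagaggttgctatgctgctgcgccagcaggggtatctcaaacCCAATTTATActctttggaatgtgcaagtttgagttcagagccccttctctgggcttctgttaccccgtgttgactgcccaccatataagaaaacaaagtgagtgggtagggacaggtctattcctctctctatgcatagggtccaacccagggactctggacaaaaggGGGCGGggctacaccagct
The P2rx4 window held 1 E-box match, which begins at base 211 counted back from the window's end; 66.2% of the 32851 promoter windows of this length in the table hold one. Counted the same way, the P2rx6 window held a CCAAT match from base 188, a TATAAA match on the other strand from base 184 that overlaps the CCAAT match, and a GC box from base 19, which spans the first base of the gene record. These letters occur in 33.8%, 12.4% and 32.7% of all such windows. The windows shared none of the 5 motifs, and a match describes letters only. In the same RefSeq table P2rx4 and P2rx7 lie on 1 chromosome with 2 genes, Mir8115 and Gm10064, between them. P2rx7 was called in none of the 3 comparisons in which P2rx4 was.

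The genes most like P2rx2 and P2rx3 were sought by Pearson's r over the 20 Mouse430_2 arrays after removal of the group means, as a description. For P2rx2 they were Tdrkh, Shank1, Dusp1, Ube2u and Zfp622, with r of 0.797, 0.785, 0.763, 0.753 and 0.753. Within NG alone the same 5 had r of 0.201 to 0.876, and within DRG alone 0.763 to 0.879. The log2 SD of P2rx2 was 0.67 in DRG and 0.20 in NG, so the DRG arrays, where its signal was low, weigh most in r. None of these 5 genes was called between NG and DRG. For P2rx3 1458396_at they were Gmeb1, Tle1, 6330407A03Rik, 1810014B01Rik and Tmem108, with r of 0.709, 0.691, 0.691, 0.686 and 0.686 (0.429 to 0.908 within a single ganglion), and 1 of the 5, Tle1, was itself higher in NG (log2 1.38, limma adjusted p = 1.74e-07). The 99.9th percentile of r over all genes was 0.701 for P2rx2 and 0.638 for P2rx3, so the leading genes stood little above that tail.

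Besides the channels, 35 genes of ATP and adenosine signalling were listed: other receptors, enzymes that break down extracellular nucleotides, release channels, and adenosine uptake and metabolism. Each of these genes, like each marker, was read from its probe set with the highest mean log2 signal. On Mouse430_2, 20 were tested, of which 2 were called higher in NG and 4 lower, against 22.2% of all probe sets tested called in either direction. In captured neurons on MG-U74Av2 1 of 7 was higher and 4 were lower, against 21.8% of all. In whole ganglia 1 of 10 was higher and 2 were lower, against 35.4%. The median log2 difference over the tested genes was -0.16, -0.77 and -0.22 in these 3 comparisons, beside -0.05, 0.05 and 0.05 over all probe sets tested.

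Of the ecto-nucleotidases, which degrade ATP stepwise to adenosine, 7 were tested on Mouse430_2, and 1 was called higher and 2 lower in NG, against 22.2% of all probe sets tested. Acpp, the prostatic acid phosphatase that turns AMP into adenosine on small DRG neurons, averaged 386.4 ± 92.4 in NG (SD, n = 11) and 1578 ± 271.8 in DRG (SD, n = 9) on Mouse430_2. It was 4.08-fold lower in NG there (log2 -2.03, limma adjusted p = 2.22e-11), and at -1.76 and -2.15 in captured neurons and whole ganglia on MG-U74Av2 (limma adjusted p = 0.000487 and 1.96e-07). Nt5e, the ecto-5'-nucleotidase with the same substrate, averaged 33.7 ± 12.6 in NG (SD, n = 11) and 216.4 ± 68.8 in DRG (SD, n = 9), 5.46-fold lower in NG (limma adjusted p = 4.83e-10). Of its 3 Mouse430_2 probe sets, 1 was called. On MG-U74Av2 Nt5e did not pass the filter. In captured neurons it averaged 22.9 ± 8.29 in NG (SD, n = 5) and 12.5 ± 5.25 in DRG (SD, n = 5). In whole ganglia the order was the reverse, at 16.9 ± 8.77 in NG (SD, n = 7) and 29.2 ± 5.21 in DRG (SD, n = 5). Entpd3, which hydrolyses ATP and ADP, was higher in NG, at 1020 ± 108.6 in NG (SD, n = 11) against 567.5 ± 116.0 in DRG (SD, n = 9), 1.81-fold (limma adjusted p = 1.34e-06). Alpl, alkaline phosphatase, was called lower in NG in captured neurons on MG-U74Av2 (log2 -0.77, limma adjusted p = 0.035), a call lost under 10 of 21 other settings, but was at -0.04 on Mouse430_2 (limma adjusted p = 0.897).

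Adk, adenosine kinase, which removes adenosine inside the cell, was lower in NG in all 3 experiments by its brightest probe set, at -0.69 on Mouse430_2 and at -0.89 and -1.48 in captured neurons and whole ganglia on MG-U74Av2 (limma adjusted p = 1.15e-05, 0.00601 and 3.57e-09). On Mouse430_2, 2 of its 6 probe sets were called lower and 0 higher. On MG-U74Av2, 1 of its 3 was called lower and 0 higher in either comparison. Slc29a1, the equilibrative nucleoside transporter ENT1, was higher in NG in all 3, at 0.49, 0.73 and 0.31 in the same order (limma adjusted p = 0.0267, 0.0242 and 0.0434). That call was lost under 5 of 32 other settings on Mouse430_2, 6 of 21 in captured neurons on MG-U74Av2 and 12 of 22 in whole ganglia, where its sign also turned without scaling. Gja1, the connexin 43 of satellite glia, was lower in captured NG neurons on both arrays, at -1.15 and -2.28 (limma adjusted p = 0.0048 and 3.58e-05), and at 0.09 in whole ganglia (limma adjusted p = 0.718). The Mouse430_2 call was lost with only sample numbers absent from MG-U74Av2 (log2 -0.22, limma adjusted p = 0.611). Gja1 is itself 1 of the markers in the glial sums given above, so its moving with them is no separate result. Of the 8 P2Y receptors, which signal through G proteins, 2 were tested on Mouse430_2 and 1 in whole ganglia and none was called; the G protein-coupled adenosine receptors were represented by Adora3 on Mouse430_2, which was not called. Probe sets of Adk and Gja1 carry suffixes that mark probes shared with similar transcripts.

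**Figure D5:**
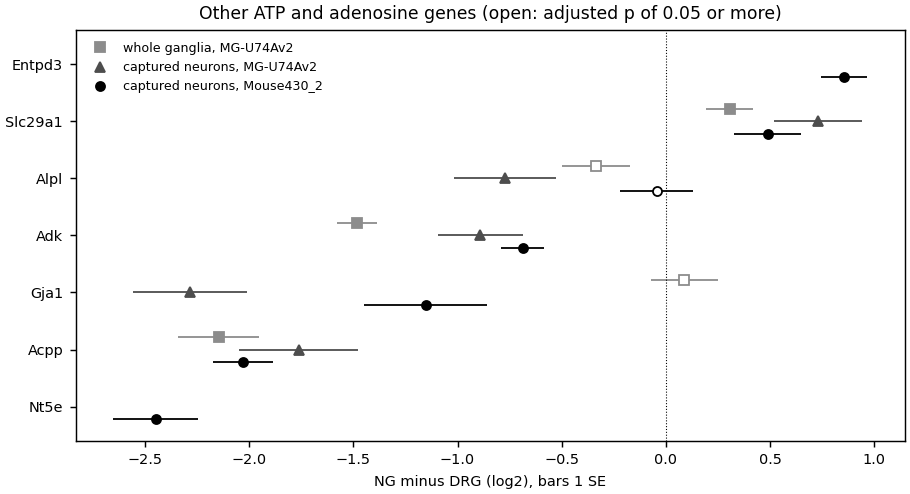
NG minus DRG (log2, bars 1 SE) of the 7 other ATP and adenosine genes called in at least 1 experiment; squares are whole ganglia, triangles captured neurons on MG-U74Av2 and circles captured neurons on Mouse430_2, with open symbols for an adjusted p of 0.05 or more. Nt5e, Acpp, Adk and captured-neuron Gja1 lie left of 0, and Entpd3 and Slc29a1 right of it.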

How the data were processed

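RNA of nodose and dorsal root ganglia was measured in 42 samples on Affymetrix MG-U74Av2 (22) and Mouse430_2 (20) arrays. The authors deposited 1 linear signal intensity per probe set and array, made, per the submitters' processing notes, with MAS5; the version used is not stated there. MAS5 combines perfect-match and mismatch probes, so a low signal may be background; detection calls were not used here. Trimmed array means differed (84.24 to 408.3), so arrays of a type were brought to 1 common 2% trimmed mean. The test used log2(signal + pseudocount), the pseudocount being the 20th percentile (11.7 for whole ganglia, 11.0 for captured neurons on MG-U74Av2, 7.48 on Mouse430_2, 11.4 for the 4 groups together), in limma 3.58.1 (trend and robust eBayes, R 4.3.3), which was tested on simulated data. Controls and dim probe sets were left out.

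Groups came from the titles and protocols. Whole-ganglion samples were taken as such from the extraction protocol and design, although their descriptions read laser captured. Symbols are those of the platform annotation, matched to RefSeq GRCm38.p6.

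The members and gene lists were chosen with earlier results of these data known. All members were named, with up to 3 called genes per direction and comparison of the other ATP and adenosine genes and the 5 genes most like P2rx2 and P2rx3. Alternatives varied the scaling, pseudocount, filter, variance model, array weights, replicate block and samples. A planned description of the proteins was not made.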

Additional observations from a re-analysis of the deposited data

How the results depend on the processing

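Under all 32 alternatives run on captured neurons on Mouse430_2, P2rx2 (log2 2.34 to 3.32), P2rx3 1458396_at (0.82 to 1.11), P2rx3 1425093_at (0.89 to 1.81) and P2rx6 1456925_at (-1.44 to -0.92) kept their direction and call. The count of members lower in NG there, 2, was 1 with the same median on every array, with the replicate block, and with only sample numbers absent from or present on MG-U74Av2, and 1 to 2 on leaving out 1 sample; P2rx5 was lost each time (adjusted p 0.0503 to 0.298), and the cause was not tested. The count lower in NG in captured neurons on MG-U74Av2, 1, was 0 to 1 on leaving out 1 sample. In whole ganglia the count lower in NG, 0, was 1 with the same median, without scaling and with array weights, and 0 to 1 on leaving out 1 sample (DRG replicate 084, NG replicate 046 or 073 each gave P2rx4). Members higher in captured samples, 2 in DRG and 3 in NG, were 1 in each without scaling.

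Directions that turned belonged to differences that the report does not call, except for Slc29a1. P2rx1 in whole ganglia was -0.0254 under quantile normalization, -0.033 with the same median, -0.27 without scaling and -0.0473 to 0.15 on leaving out 1 sample. Without scaling, P2rx7 in whole ganglia was -0.17, Slc29a1 in whole ganglia -0.0625, and P2rx1 in captured minus whole DRG -0.0858. P2rx6 on MG-U74Av2 ran from -0.53 to 0.054 on leaving out 1 sample, and P2rx7 in captured minus whole NG from -0.0162 to 0.10. P2rx1 on Mouse430_2 was 0.16 and P2rx4 1441772_at 0.09 with only sample numbers present on or absent from MG-U74Av2. Between the ganglia, r of same-numbered samples' deviations from their group means was -0.106 to 0.111 over 4 pairs on MG-U74Av2. It was -0.154 to 0.155 over 7 on Mouse430_2, and 1 pair on each array type matched best. With so few pairs these values cannot show whether a shared number is a shared animal. With the number as a replicate block, P2rx6 on MG-U74Av2 was 0.21, P2rx1 on Mouse430_2 0.0044, P2rx5 had an adjusted p of 0.0946, and the Adk call on MG-U74Av2 was lost (-0.83, adjusted p 0.053). Whole ganglia share 1 number, so no block was fitted. Without scaling the median of all probe sets moved to -0.29 in whole ganglia, -0.17 on Mouse430_2 and -0.24 in captured minus whole DRG, against 0.05, -0.05 and 0.03 with it; with the same median on every array, calls on Mouse430_2 split 3845 higher and 2210 lower in NG, compared with 2733 and 3517. The P2rx2 minus P2rx3 contrast, varied after seeing the data, stayed at 1.4 to 2.2 with 1458396_at and 1.16 to 1.71 with 1425093_at. P2rx1 1460719_a_at did not pass the stricter filter.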
